A study of Mus musculus with 6 samples.

Results

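The genes that carry a cell through G2 and mitosis were followed in Ter119+ bone marrow cells, labelled as erythroblasts, of wild type and mDia2 knockout mice; Ter119 is a surface marker of the red cell lineage. The set was a list of 42 mouse genes, from the mitotic cyclins to the spindle motors. A gene entered by its symbol in the deposited array table, was read from its brightest probe by mean signal, and was kept where at least 3 of the 6 arrays detected that probe, with a detection p under 0.05. This left 35 of the 42 genes, out of 11564 genes detected by the same rule. The wild type group was 3 C57BL/6 mice and the knockout group 3 C57BL/6 mice labelled mDia2 KO, all 4 months old, with 1 Illumina bead array per mouse. The series' design text calls the knockout conditional; the Cre line, and so the cells that lost the gene, was not given in the sources used here. mDia2, encoded by Diaph3, is a formin, a protein that builds unbranched actin filaments. The question was whether transcripts of the mitotic programme differed between the genotypes.

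As background, a dividing cell enters mitosis when cyclin B activates the kinase CDK1, and condensins, kinetochores and spindle motors then prepare and move the chromosomes. The spindle checkpoint holds back CDC20, the activator of the anaphase-promoting complex, until every kinetochore is attached. The complex then marks cyclin B and securin for destruction, which frees separase to release the sister chromatids. Erythroblasts, the nucleated precursors of red cells, go through several such divisions as they mature and then leave the cycle before the nucleus is expelled. mDia2 is known for a role in cytokinesis, the last step of such a division.

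No detected gene of the set passed the test between the genotypes, and the median of the set lay close to that of all genes. In limma, 0 of 35 genes had an adjusted p under 0.05 over all tested probes, where 0.104% of all genes did. The smallest adjusted p was 0.181, for the separase gene Espl1. At an unadjusted p under 0.05, 6 genes (17.1%) were lower in knockout mice, against 18.6% of all genes, and 0 were higher, against 1.3% of all genes. Every knockout array lay below every wild type array for 6 genes (17.1%, against 23.2% of all genes), and every knockout array lay above for 0 genes (against 2.01%). These shares are near or below the background. On the log2 scale, knockout minus wild type, the median change was -0.09 over the 35 genes and -0.11 over all genes, and 26 of the 35 (74.3%) lay below 0, as did 81.2% of all genes. The sign of a change depends on the scaling: with each array centred on its tested probes, which moves all genes by the same amount, the median of the set was 0.08, that of all genes 0.07, and 12 of the 35 lay below 0.

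The precision of the arrays bounds what could be seen. The standard error of a log2 change ran from 0.07 to 0.21 over the 35 genes, and 95% intervals reached a median of 0.23 to either side. For 27 genes the whole interval lay within 0.5 of 0 on the log2 scale. The widest intervals reached down to -0.98, for Cenpf, and up to 0.54, for Ube2c. A gene that did not pass is therefore not shown to be equal between the groups.

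**Figure D1:**
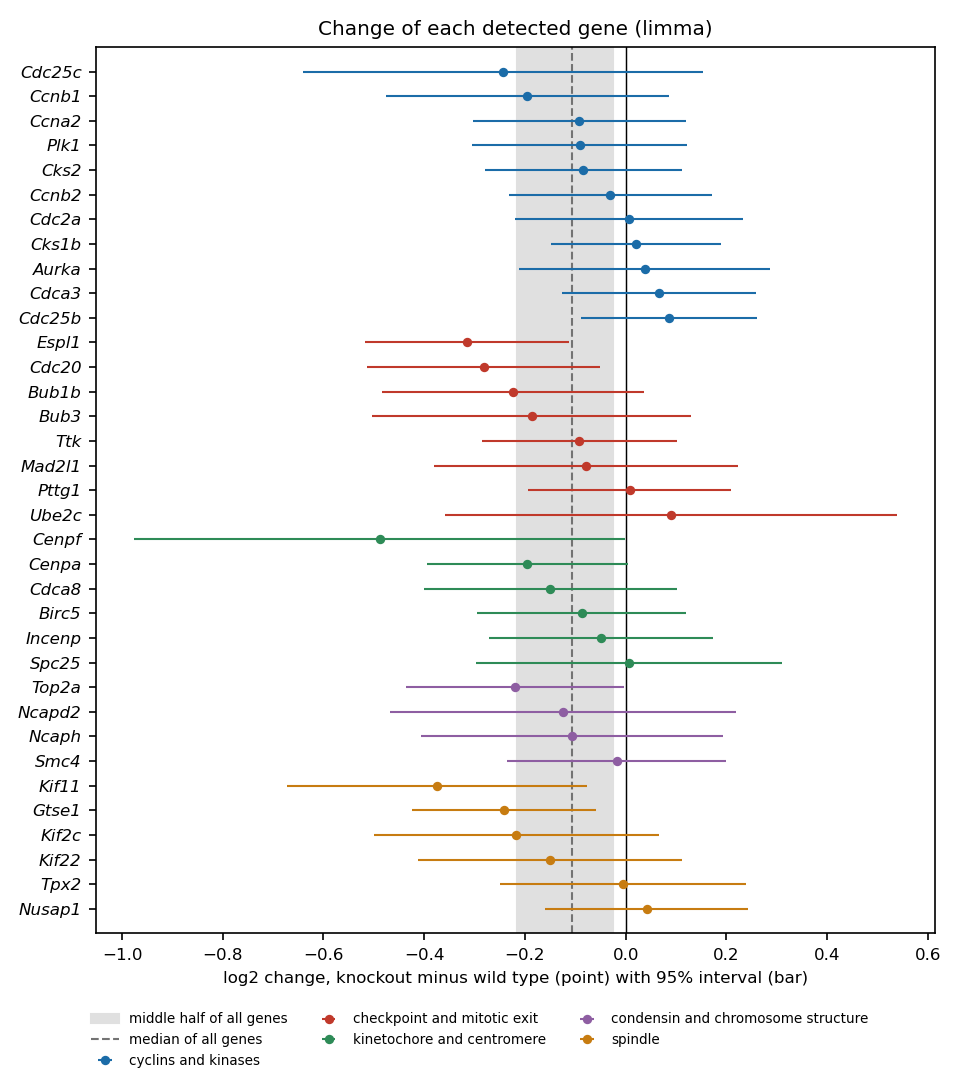
Log2 change, knockout minus wild type, of each of the 35 detected genes (points, 3 mice per group) with its 95% interval from limma (bars), coloured by role. The grey band spans the middle 50% of all 11564 genes, from -0.21 to -0.03, and the dashed line is their median of -0.11; 9 genes of the set lie below the band and 11 above it, and all signs are those of the signals as deposited.

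The members also share features of their promoters that played no part in choosing them. As background, many genes of this phase carry a cell cycle homology region (CHR, TTTGAA), bound by the MuvB complex as part of DREAM in resting cells and with B-MYB and FOXM1 in cycling cells. They often also carry CCAAT boxes, bound by NF-Y. In RefSeq promoter windows of GRCm38.p6, each 250 bases before to 50 after the gene's start, 36 of the 42 genes had a window (Cdc2a by its current symbol, Cdk1), and the first listed was read. TTTGAA was present on either strand in 24 of the 36 (66.7%), against 18.1% of the windows of 27025 genes. It lay within 50 bases of the start in 22 (61.1%, against 4.92%). CCAAT was present on either strand in 28 (77.8%, against 37.9%), and both motifs in 22 (61.1%, against 7.12%). The end of one motif can overlap the start of the other by 1 base, and a match of letters is a description, not a bound site. Shown here are the last 100 bases before the start and the first 50 after it, with TTTGAA (or its complement TTCAAA) and CCAAT (or ATTGG) in capitals, for cyclins B1 and B2, Cdc20, the kinase Plk1, and the named genes Espl1 and Kif11.
Ccnb1: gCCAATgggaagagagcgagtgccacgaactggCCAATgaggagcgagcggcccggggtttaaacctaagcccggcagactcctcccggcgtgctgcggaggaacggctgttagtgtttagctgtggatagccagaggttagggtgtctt
Ccnb2: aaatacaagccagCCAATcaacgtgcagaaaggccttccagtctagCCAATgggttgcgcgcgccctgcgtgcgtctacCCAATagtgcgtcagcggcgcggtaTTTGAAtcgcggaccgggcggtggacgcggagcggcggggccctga
Cdc20: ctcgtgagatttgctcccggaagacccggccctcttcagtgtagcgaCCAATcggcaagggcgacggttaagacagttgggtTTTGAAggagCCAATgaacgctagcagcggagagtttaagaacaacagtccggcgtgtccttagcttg
Plk1: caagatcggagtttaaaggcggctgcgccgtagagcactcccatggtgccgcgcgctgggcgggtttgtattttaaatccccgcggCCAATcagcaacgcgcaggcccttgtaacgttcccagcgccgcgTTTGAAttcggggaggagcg
Espl1: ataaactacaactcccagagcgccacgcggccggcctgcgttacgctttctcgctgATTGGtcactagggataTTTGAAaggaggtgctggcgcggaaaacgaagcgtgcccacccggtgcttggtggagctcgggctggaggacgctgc
Kif11: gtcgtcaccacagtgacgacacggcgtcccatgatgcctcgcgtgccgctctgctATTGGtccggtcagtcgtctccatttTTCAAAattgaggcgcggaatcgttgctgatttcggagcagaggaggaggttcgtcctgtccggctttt
The windows are Ccnb1, chr13:100786437-100786586 on the minus strand; Ccnb2, chr9:70421505-70421654 on the minus strand; Cdc20, chr4:118437294-118437443 on the minus strand. Those of the other 3 are Plk1, chr7:122159335-122159484 on the plus strand; Espl1, chr15:102296193-102296342 on the plus strand; Kif11, chr19:37376282-37376431 on the plus strand. Ccnb1 shows 2 CCAAT boxes and no TTTGAA in this stretch, while the other 5 show both motifs.

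The cyclins, kinases and their partners, which drive entry into mitosis, were all detected (11 of 11). Their median log2 change was -0.03 (0.14 with each array centred). Of these genes 6 (54.5%) were below 0, against 81.2% of all genes, and 5 above. None had an unadjusted p under 0.05 (0 of 11), where 18.6% of all genes were lower and 1.3% higher. Ccnb1, which encodes cyclin B1, read 1253, 1348 and 1719 in wild type replicates 1 to 3 and 1254, 1199.7 and 1286 in knockout replicates 1 to 3. Wild type replicate 3 was high and the other arrays overlapped. The log2 change was -0.20 (SE 0.12, limma adjusted p = 0.406) and was -0.06 without wild type replicate 3. Cdc25c encodes a phosphatase that activates CDK1, and read 452, 375 and 443 in wild type and 460, 285 and 345 in knockout mice. Knockout replicate 2 was the lowest array and knockout replicate 1 the highest, at a log2 change of -0.24 (SE 0.17, limma adjusted p = 0.453). Its value was -0.43 without knockout replicate 1 and -0.08 without knockout replicate 2.

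CDK1 itself, listed as Cdc2a, read 1780, 1734 and 1778 in wild type and 2012, 1590 and 1737 in knockout mice. The knockout arrays lay on both sides of the wild type ones, and the change was 0.0060 with a 95% interval from -0.22 to 0.23. Cdca3, a protein linked to the degradation of the CDK1-inhibiting kinase WEE1, read 4360.1, 4536 and 4709 in wild type and 5159, 4645 and 4463 in knockout mice, with overlap and a change of 0.07 (SE 0.08, limma adjusted p = 0.672). Ccna2 (cyclin A2), Plk1 (a kinase of entry and spindle assembly) and Cks2 (a CDK-binding subunit) had changes of -0.09, -0.09 and -0.08. Changes were -0.03 for Ccnb2 (cyclin B2), 0.02 for Cks1b (a CDK-binding subunit), 0.04 for Aurka (a centrosome kinase) and 0.09 for Cdc25b (a CDK phosphatase). The groups overlapped for all 11. Ccnb2, whose change is the median of the 11, was dim. Its wild type arrays read 100 to 120, where undetected probes had medians of 87 to 89.

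**Figure D2:**
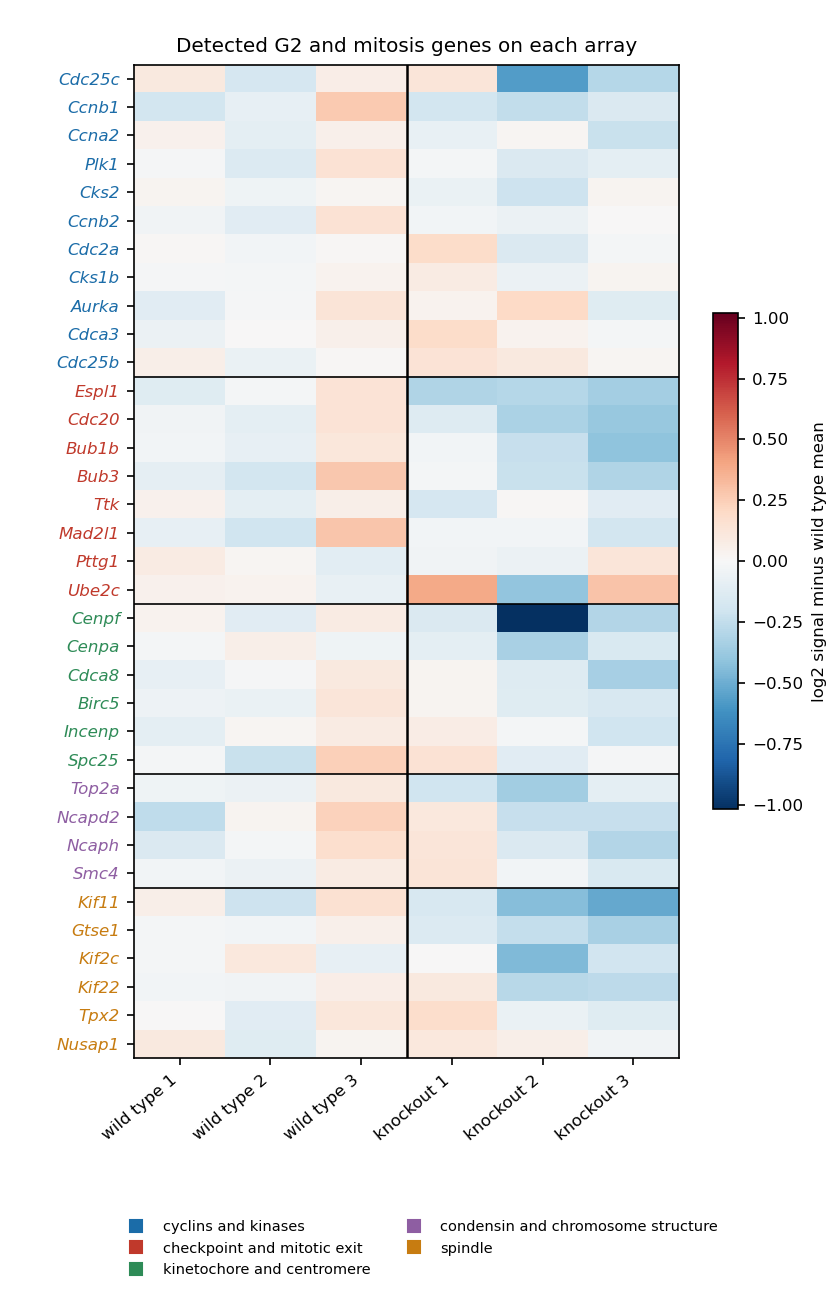
Log2 signal of each detected gene (rows, grouped and coloured by role) on each array (columns) minus the gene's mean over the 3 wild type arrays; red is above and blue below that mean, on signals as deposited. Knockout replicates 2 and 3 and wild type replicate 2 lie above that mean for 6, 6 and 7 genes, knockout replicate 1 for 18 and wild type replicate 3 for 31, and the deepest blue cell is Cenpf in knockout replicate 2.

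Of the spindle checkpoint and mitotic exit genes, 8 of 9 were detected. Their median change was -0.14 (0.04 centred), with 6 (75%) below 0, against 81.2% of all genes. At an unadjusted p under 0.05 in limma, 2 of the 8 were lower, against 18.6% of all genes. The separase gene Espl1, whose product cuts the cohesin that joins sister chromatids, read 639, 689 and 769.6 in wild type and 562, 569.8 and 549 in knockout mice. Every knockout array lay below every wild type array, and the knockout arrays lay close together. The wild type arrays averaged 699 ± 66.1 (SD, n = 3) and those of knockout mice 560.4 ± 10.5 (SD, n = 3). The log2 change was -0.32 (SE 0.09, limma adjusted p = 0.181), or -0.14 centred. Cdc20 read 2317, 2208 and 2606 in wild type and 2159.6, 1899 and 1809 in knockout mice, again without overlap, at a log2 change of -0.28 (SE 0.10, limma adjusted p = 0.214). Knockout mice averaged 82.3% of the wild type signal as deposited, and the log2 change of Cdc20 was -0.11 centred.

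Ube2c, the ubiquitin-conjugating enzyme of the anaphase-promoting complex, was the most uneven gene of this role. It read 539, 534 and 494 in wild type and 681, 394 and 638 in knockout mice, so 2 knockout mice were above and 1 below every wild type mouse. Its change was 0.09 (SE 0.19, limma adjusted p = 0.816), at 0.34 without knockout replicate 2 and -0.06 without knockout replicate 1. Bub1b, the checkpoint kinase BUBR1, had a change of -0.22 and Bub3, its partner at the kinetochore, of -0.19. Changes were -0.08 for Mad2l1 (the checkpoint protein MAD2) and -0.09 for the checkpoint kinase Ttk. The securin gene Pttg1 was at 0.0078. The groups overlapped for these 5 genes, with limma adjusted p from 0.318 to 0.968. Bub1, another checkpoint kinase, was detected on at most 1 array and was not tested.

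Kinetochore and centromere genes were detected for 6 of 8 members, with a median change of -0.12 (0.06 centred). Of the 6, 5 (83.3%) were below 0, against 81.2% of all genes. Cenpf, a large kinetochore protein that accumulates in G2, had the largest change of the set in either direction. It read 387, 348 and 400.04 in wild type and 341, 186 and 308 in knockout mice. All knockout arrays lay below all wild type arrays, and knockout replicate 2 stood well below the other 2. The log2 change was -0.49 (SE 0.21, limma adjusted p = 0.264), and 4.56% of all genes had a lower change. Without knockout replicate 2 it was -0.22, without knockout replicate 1 it was -0.66, and centred it was -0.31.

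Cenpa, the histone variant that marks centromeres, read 8768, 9297 and 8654 in wild type and 8317, 7069 and 7989 in knockout mice. The groups did not overlap as deposited, at a log2 change of -0.20 (SE 0.09, limma adjusted p = 0.272), or -0.02 centred. The chromosomal passenger complex, which corrects faulty attachments, was represented by survivin (Birc5, -0.09), borealin (Cdca8, -0.15) and Incenp (-0.05), and Spc25 of the NDC80 complex was at 0.0065. The groups overlapped for each of these 4 genes. Cenpe, a kinetochore motor, was detected on 0 arrays, and no probe was listed under the symbol Nuf2.

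For condensin and chromosome structure 4 of 5 genes were detected, with a median of -0.12 (0.06 centred). All 4 were below 0 as deposited, as were 81.2% of all genes. Top2a, the topoisomerase that untangles sister chromatids, read 1839.99, 1826 and 2039 in wild type and 1646, 1482 and 1777 in knockout mice. There was no overlap as deposited, and the log2 change was -0.22 (SE 0.09, limma adjusted p = 0.2598), or -0.05 centred. The condensin subunit Ncapd2 read 2508, 3069 and 3531 in wild type and 3231, 2549 and 2548 in knockout mice, with wide overlap. Its change of -0.12 (SE 0.15, limma adjusted p = 0.657) turned to 0.05 after centring. Ncaph was at -0.11 and Smc4 at -0.02, both condensin subunits. Smc2, their partner, was detected on 0 arrays.

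Spindle genes were detected for 6 of 9 members, with a median change of -0.18 (-0.0085 centred). This was the lowest median of the 5 role groups, an order that centring cannot change because it moves all genes alike. The order did depend on the filter. With only probes detected on all arrays, the checkpoint group was lower (-0.187 against -0.183). Without a filter on dim probes, the condensin group was lower (-0.11 against -0.06). Differences between role groups were not tested. Kif11, the motor that pushes spindle poles apart, read 504.9, 417 and 537 in wild type and 431, 357 and 338 in knockout mice. Only knockout replicate 1 lay above the lowest wild type array. The wild type arrays averaged 487 ± 62.0 (SD, n = 3) and those of knockout mice 375 ± 49.3 (SD, n = 3). The log2 change was -0.37 (SE 0.13, limma adjusted p = 0.205), or -0.20 centred, and 7.87% of all genes had a lower change. Gtse1, a microtubule-binding protein made in G2, read 802, 799 and 843 in wild type and 738, 687 and 646 in knockout mice. The groups did not overlap as deposited, at -0.24 (SE 0.08, limma adjusted p = 0.193), or -0.07 centred.

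Kif2c, a motor that takes microtubules apart at centromeres, and Kif22, a chromosome-arm motor, were at -0.22 and -0.15, with overlap. Tpx2, the activator of Aurora A on the spindle, was at -0.0054. Nusap1, which bundles spindle microtubules, read 3371, 2889 and 3219 in wild type and 3392, 3282 and 3069 in knockout mice, at 0.04 (SE 0.09, limma adjusted p = 0.808). Hmmr, Kif20a and Cep55 were detected on 0 arrays. At the edge of the rule, Ttk and Ccnb2 were kept with 4 and 5 arrays detected, the other 33 with all 6, and Bub1 was left out with 1. A count of arrays with detection reflects the probe as well as the transcript, so signals are compared within a probe and not between probes.

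**Figure D3:**
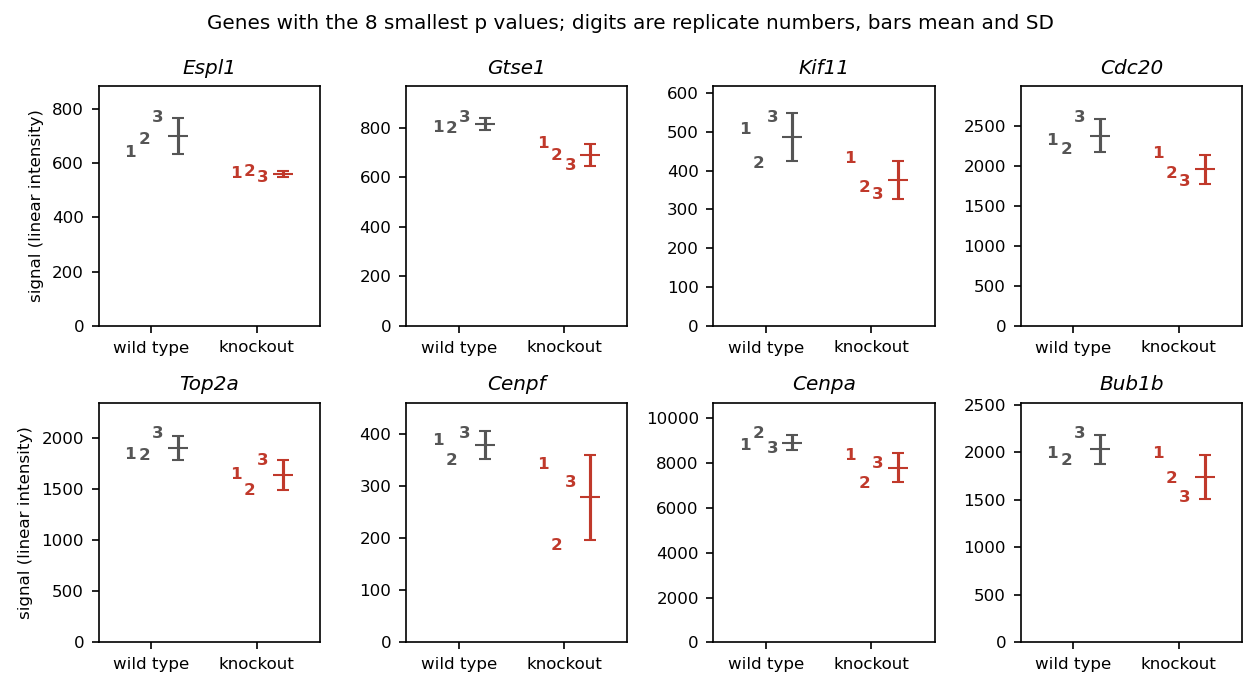
Signal (linear intensity, axes from 0) of the 8 genes with the smallest unadjusted p; digits mark the replicate number of each mouse, and bars show mean and SD over 3 mice. On signals as deposited, the groups do not overlap for Espl1, Gtse1, Cdc20, Top2a, Cenpf and Cenpa, and overlap for Kif11 and Bub1b.

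The 35 genes did not vary alike in the 6 mice. Relative to the wild type mean, their median was 0.00055 in knockout replicate 1, -0.15 in knockout replicate 2 and -0.16 in knockout replicate 3. The same medians over all genes were -0.10, -0.07 and -0.16. Both knockout replicates 2 and 3 read below knockout replicate 1 for 25 of the 35 genes. The share of all genes in that order was not computed, so this count has no background beside it. Knockout replicate 2 was the lowest of the 6 arrays for 12 genes of the set (17.1% of all genes) and knockout replicate 3 for 14 (42.6% of all genes). Knockout replicate 1 was the highest for 10 genes (11.7% of all genes), and wild type replicate 3 for 20 (59.3% of all genes).

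The role groups showed this in unequal measure. In knockout replicate 2 the median was -0.06 for cyclins and kinases, -0.23 for checkpoint and exit genes and -0.26 for spindle genes. In knockout replicate 3 these were -0.02, -0.25 and -0.23. In knockout replicate 1 they were 0.03, -0.03 and 0.05. For knockout replicates 1, 2 and 3 the kinetochore medians were 0.03, -0.13 and -0.18, and those of condensin genes 0.11, -0.19 and -0.20. The count of 6 genes lower at an unadjusted p under 0.05 depended on single mice. It became 10 when knockout replicate 1 was left out and 2 when wild type replicate 3 was. Leaving out wild type replicate 2 gave 4, and leaving out any of the other 3 mice gave 3. The share of all genes at that p was not computed for these fits. The median change of all genes moved as well, between -0.13 and -0.06 with each mouse left out.

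**Figure D4:**
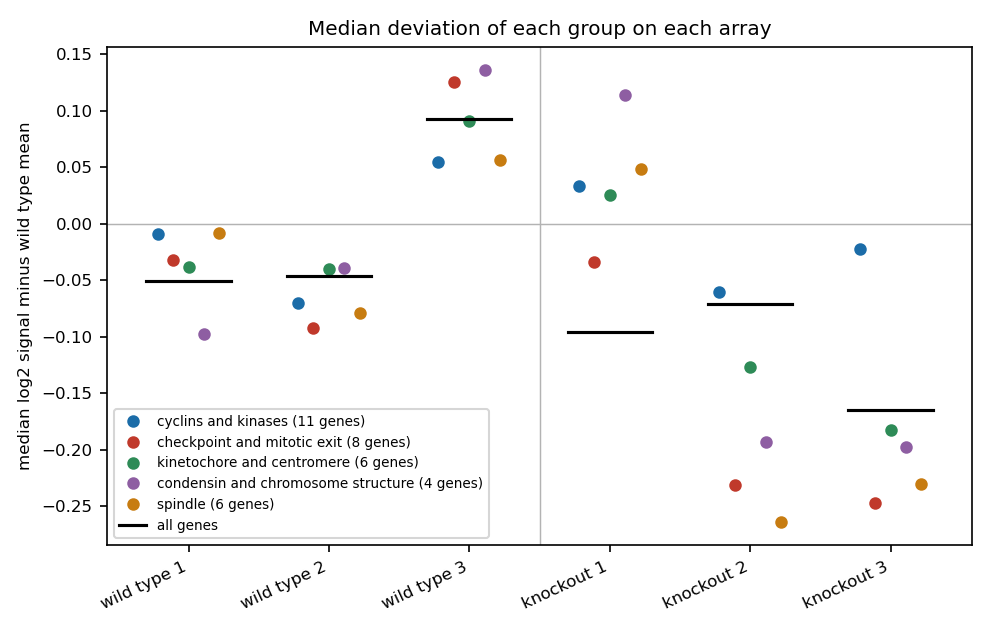
Median log2 signal minus the wild type mean for each role group (points) and for all 11564 genes (black bars) on each array, signals as deposited. On knockout replicate 1 all 5 role groups lie above the bar of all genes, and on knockout replicates 2 and 3 the checkpoint, kinetochore, condensin and spindle groups lie below it.

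Several probes reported on some genes, which gives a second reading of the same RNA. There were 61 detected probes for the 35 genes, and 17 genes had more than 1. All probes of a gene pointed the same way for 9 of the 17. They pointed both ways for 8: Cdc2a, Cdc25b, Cdca3, Bub3, Spc25, Birc5, Top2a and Nusap1. For Birc5 the other probes were at 0.03 and 0.13, beside -0.09 for the chosen probe. Each of the 3 Cenpf probes was lowest in knockout replicate 2, and the other 2 had changes of -0.18 and -0.16 beside -0.49. Both Cdc25c probes were also lowest in that mouse. The second was at -0.29, with an unadjusted limma p of 0.0429 (limma adjusted p = 0.251), and the chosen probe did not reach that level. The second Gtse1 probe was at -0.13.

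For Cdc20 and Top2a the probes differed. The other 3 Cdc20 probes had changes between -0.07 and -0.04, beside -0.28 for the chosen probe. A second Top2a probe read 1089, 1147 and 1141 in wild type and 1271, 1299.9 and 1193 in knockout mice. There every knockout array lay above every wild type array, at a log2 change of 0.16 (limma adjusted p = 0.292), opposite to the chosen probe, and the remaining probe was at -0.05. Only the chosen one of the 3 Top2a probes had an unadjusted p under 0.05. Where the probes lie in their transcripts was not analysed here.

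**Figure D5:**
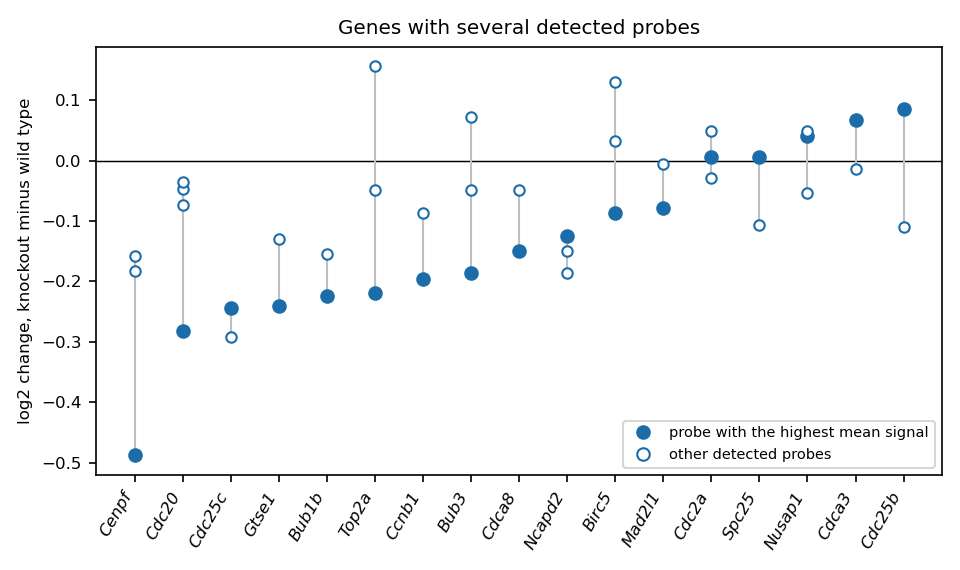
Log2 change, knockout minus wild type, of each detected probe of the 17 genes with more than 1; filled points are the probes with the highest mean signal, open points the others, and grey lines join the probes of a gene. All probes of Cenpf and Cdc25c lie below 0, while those of Top2a span 0, from -0.22 to 0.16; all values are on signals as deposited.

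The wider pathway was read in the same way. A second list of 91 symbols of mitosis genes, of which Dlg7 and Dlgap5 name the same gene, held none of the 35. It covered further regulators, subunits of the anaphase-promoting complex, cohesin and other kinetochore and spindle genes, and 75 were detected. Their median change was -0.08 (0.09 centred), with 57 (76.0%) below 0, against 81.2% of all genes, and 0 passing in limma. At an unadjusted p under 0.05, 6 (8.0%) were lower and 1 (1.33%) higher, against 18.6% and 1.3% of all genes. The count of 6 lower became 14 without knockout replicate 1, 3 without wild type replicate 1, and 2 without wild type replicate 3 or without knockout replicate 3. For these fits the share of all genes was not computed. The smallest p values belonged to 2 cohesin-related genes, the regulator Pds5a (-0.27) and the ring subunit Smc3 (-0.25), and to 2 subunits of the anaphase-promoting complex, Cdc27 and Anapc4 (-0.35 for both), with limma adjusted p from 0.181 to 0.232. Pds5a read 142, 142 and 157 in wild type and 125, 118 and 120.3 in knockout mice, without overlap. The gene that was higher, Cenpq of the inner kinetochore, read 259, 257 and 259 in wild type and 340.4, 271 and 306 in knockout mice (log2 change 0.24, limma adjusted p = 0.244). The mitotic transcription factor Foxm1 was at -0.14 (limma adjusted p = 0.413), and the kinase Aurkb at -0.04 (limma adjusted p = 0.889). Its value in knockout replicate 1 was 1291, above all wild type arrays, beside 930.1 and 977 in the other knockout mice.

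The targeted gene and the cell markers were read in the same arrays. The brighter Diaph3 probe, listed as Diap3, was at 47.0% of the wild type mean in knockout mice, with no overlap (limma adjusted p = 0.0917); the probe's place relative to the deleted part was not analysed here. Erythroid markers were detected for 13 of 15 listed symbols, of which Eraf and Ahsp name the same gene. Those detected included the globins, Alas2 and Slc4a1. The median change of the 13 was 0.13 (0.31 centred, and 0.071 without wild type replicate 1 or with the probes of a gene averaged). Their summed signal was 189340.2 to 206208 in wild type and 210048 to 218268 in knockout mice. The arrays detected 14815 to 16951 of 45281 probes each. Markers of other marrow cells were detected as well. Neutrophil markers were detected for 13 of 15 listed symbols, of which Elane and Ela2 name the same gene. All 13 had every knockout array below every wild type array, against 23.2% of all genes, though 0 passed in limma. Their median change was -1.33, and it was -1.29 after quantile normalization and -1.16 centred. Their summed signal was 36198 to 51887 in wild type and 14554 to 25755 in knockout mice. Knockout replicate 2 had the highest neutrophil and monocyte sums of the knockout mice (25755 and 4741, against at most 19804 and 1926 in the other 2).

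Markers of early erythroid and multipotent progenitors, which divide often, were detected for 5 of 8 genes, with a median change of -0.17 (0.0027 centred). The receptor Kit, the brightest, was at -0.72 (limma adjusted p = 0.1795), and Gata2, Myb, Myc and Cd34 were at -0.32, -0.17, -0.09 and -0.08. The summed signal of the 5 was 805 to 906 in wild type and 596 to 715 in knockout mice. Kit alone read 331 to 432 in wild type and 185 to 290 in knockout mice. Hoxa9, Meis1 and Flt3 were not detected on enough arrays. For monocytes and macrophages 9 of 10 genes were detected (median -0.71, or -0.53 centred, summed signal 4131 to 9209 against 1907 to 4741). Megakaryocyte and platelet markers were detected for 5 of 7 (-0.61, or -0.43 centred, 1370.4 to 1976 against 1118 to 1174). B lineage markers were detected for 3 of 10 (-0.35, or -0.17 centred, 617 to 681 against 403 to 429.8), of which Cd79b passed in limma (-0.96, adjusted p = 0.00383), while Ms4a1, Pax5, Ebf1, Rag1 and Dntt were each detected on fewer than 3 arrays. Those of T and NK cells were detected for 2 of 6 (-0.32, or -0.14 centred, 235 to 332 against 196 to 233). These 2 differed, with Nkg7 at -0.59 and the T cell gene Cd3e at -0.04. Eosinophil, basophil and mast cell markers were detected for 3 of 5 (-0.29, or -0.11 centred, 1135 to 2474 against 629 to 2780.0). In such a mixed fraction, fewer cells of a type and less RNA per cell cannot be told apart, and the part of these cells in the mitotic signals was not tested.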

How the data were processed

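Signals of 6 Illumina bead arrays, 1 per mouse, were analysed. Per the labels' protocols, RNA was extracted with Trizol and labelled with biotin by an Illumina TotalPrep kit. Per the file headers, the deposited annotated table gave an average signal (intensity, linear scale) and a detection p-value for each of 45281 probes and each array. The file's name calls the intensities normalized; the method was not given in the sources used here. A deposited value table held identical intensities for all 45281 probes. Lines without values (2) were left out.

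Intensities were log2 transformed as deposited. Probes detected (p under 0.05) on at least 3 of 6 arrays were tested (15743), and each symbol took the values of its brightest probe by mean log2 signal. The genotypes were compared in limma 3.58.1 (lmFit, eBayes) under R 4.3.3. Two-sided p-values were adjusted by Benjamini-Hochberg across these probes, and 0.05 was the threshold. No list was given a test. The code was tested on simulated data.

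Named genes were, per role, the 2 of smallest unadjusted p and the probe of highest mean signal, every gene with an unadjusted p under 0.05, and the largest change in each direction; in the wider list, the 4 of smallest p, Aurkb and Foxm1. Other values beyond this rule (such as Cdc2a and Cenpq) were chosen after they were seen. Members, lists and tests were chosen with earlier results of these data known. Per the design text, replicates were separate mice. Equal replicate numbers were not treated as pairs in the main fit. Deviations of same-numbered arrays correlated at 0.218, -0.278 and -0.188 across probes. These values cannot show whether the mice were matched, by these numbers or in another way. Promoter windows came from a RefSeq table (GRCm38.p6). The number of arrays limits the precision. Alternatives covered scaling, background, filter, variance model, array weights, the replicate block, animal number series, probe choice, pseudocount, threshold and each mouse left out.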

Additional observations from a re-analysis of the deposited data

How the results depend on the processing

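In all 20 alternatives 0 members of the set passed over all probes. Of the 20, the deposited value table had to repeat the main fit, because its intensities are identical. The smallest limma adjusted p of any member ran from 0.0793 (Ube2c, without wild type replicate 3 and knockout replicate 2) to 0.483 (without knockout replicate 3). The median of the set was -0.09 as reported and 0.083 when centred on the tested probes, where 12 members lay below 0; relative to the median of all genes it was 0.01, with a range of -0.05 to 0.07. The 6 members lower at an unadjusted p under 0.05 became 1 after quantile normalization, 0 when centred, 3 with the replicate block, 1 when both arrays of lowest weight in earlier results (wild type replicate 3, knockout replicate 2) were dropped, and 2 to 10 with each mouse left out. Members higher at that p numbered 2 after quantile normalization, 4 when centred, 1 with both arrays left out and 0 to 1 with each mouse left out. Shares of all genes at that unadjusted p were not computed for these alternatives. Ncapd2 turned to 0.050 when centred, 0.027 with array weights and 0.049 with both arrays left out. Nusap1 turned to -0.0027 with the animal number series in the model. With single mice dropped, Nusap1 lay between -0.022 and 0.090 and Ube2c between -0.058 and 0.34. The 12 genes called over all probes, all lower, became 34 when centred (11 higher, 23 lower), 27 with normexp, 3 when detected on all arrays, 105 with an intensity trend, 148 with array weights, 3 with the replicate block, 6 with the animal number series, 34 at an adjusted p under 0.1, 827 with both arrays left out and 6 to 152 with each mouse left out. Quantile normalization gave 4 higher and 7 lower. The causes were not tested. Signals near background, such as those of Ttk and Ccnb2, limit what could be seen. Wild type means were under 200 for 5 of the genes: Ttk, Ccnb2, Pttg1, Cks1b and Smc4.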
